A study of Mus musculus with 4 samples.

Results

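The genes described here encode the core of the mTOR complexes and the proteins that act directly on them. They are 10 genes, Mtor, Rptor, Rictor, Mlst8, Akt1s1, Tsc1, Tsc2, Rheb, Rragc and Rragd, chosen by name, and all 10 were among the 16051 genes listed in the deposited expression table. FPKM is an expression level, the number of sequenced fragments of a gene scaled for its transcript length and for the size of the library. The 9 genes whose FPKM averaged 1 or more across the libraries were tested, and Rragd, below that level, was not.

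mTOR is a protein kinase that works in 2 complexes. In mTORC1 it is joined by Raptor (Rptor), which recruits substrates, and by PRAS40 (Akt1s1), which inhibits the complex, and in mTORC2 by Rictor. mLST8 belongs to both complexes. Growth factor signals reach mTORC1 through the TSC complex (Tsc1, Tsc2), which turns off the small GTPase Rheb, the direct activator of the kinase, and amino acid signals reach it through Rag GTPases, which bring mTORC1 to the lysosome as heterodimers of RagA or RagB with RagC or RagD. In adipocytes mTORC1 is known for promoting lipid synthesis and differentiation and mTORC2 for insulin signaling to Akt.

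The cells were differentiated 3T3-L1, a mouse fibroblast line that can form adipocytes in culture, labelled with the strain NIH SWISS. RIS libraries came from cells given 100 μM risperidone, an antipsychotic drug, for 48 h, and RNC libraries from controls that the sample labels call untreated and the study's methods describe as given DMSO. Each group had 2 libraries, and each library was a pool of RNA from 3 cultures, which hides how single cultures vary, and the p-values measure only the spread between these pools. The labels name only an extraction from retina, which does not match the cell line. The libraries held between 15883712 and 16374119 estimated counts, and at this depth a count of 0 allows up to 3 counts, or 0.183 to 0.189 CPM (counts scaled to a common library total), for counting error only.

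Before the results, the libraries were checked against cell type markers. Of 10 adipocyte markers, Adipoq, Cidec, Lep and Retn had at most 3 counts in every library Cebpa and Cfd at most 5 and Plin1 at most 14, while Lpl, Fabp4 and Pparg had at least 345. The summed level of the 10 markers was 1006 and 1089 CPM in the RNC libraries and 806 and 809 CPM in the RIS libraries, and that of 8 preadipocyte and fibroblast markers was 3084 and 3039 against 4820 and 4633 CPM. The lists did not move as a whole. The first sum was mostly Lpl, and of the adipocyte markers tested Fabp4 (log2 fold change -1.09) and Lpl (-0.24) were lower in RIS and Pparg was not called (0.12). The second sum was mostly Col1a1, and of its markers tested Col1a1 (0.99), Dlk1 (1.52), Thy1 (1.05) and Ly6a (1.202) were higher, Col3a1 (-0.96) and Pdgfrb (-0.50) lower and Pdgfra not called (-0.033). Ly6a was at 1.93 and 1.84 FPKM in RNC, 2.49 FPKM in RIS replicate 1 and 5.58 FPKM in RIS replicate 2. The part of these markers in the results below was not tested, and in bulk RNA fewer cells of a type and less RNA per cell cannot be told apart. RIS replicate 2 stood apart: all 12 kidney markers were highest there, with a summed level of 201 CPM against 4.25 to 5.99 CPM in the other 3 libraries, so the results of the members are also given without it. Of 8 retina markers 5 were listed, summing to 66.8 to 79.0 CPM in the 4 libraries, mostly from Rbpms, which is not confined to retina. Of 6 immune cell markers 4 were listed, at 2.99 and 3.90 CPM in the RNC libraries and 7.13 and 7.76 CPM in the RIS libraries, nearly all from Cd68, while Ptprc, Itgam and Cd3e had at most 3 counts in every library.

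The question was whether the transcripts of the mTOR machinery differed between risperidone and control cells. They did so by small amounts and mostly downward. With edgeR's quasi-likelihood test and Benjamini-Hochberg adjustment over the 10243 genes tested, 6 of the 9 members tested were lower in RIS (Mlst8, Tsc1, Tsc2, Rragc, Rptor and Akt1s1), 1 was higher (Rheb) and 2 did not pass the threshold of 0.05 (Mtor and Rictor). The counts were 4 lower and 0 higher with DESeq2 or with no filter on low values, 3 lower and 0 higher without RNC replicate 1 or without RNC replicate 2, 4 and 0 without RIS replicate 1, and 7 and 1 without RIS replicate 2. Among all genes tested, 64.3% were called in either direction, 32.2% as lower and 32.1% as higher, so being called is the usual outcome in this comparison. The split of all genes was 2500 higher and 4092 lower with library size as the only scaling and 1536 and 5292 with limma on log2(TPM + 1), against 3287 and 3303 here. The libraries of the 2 groups did not overlap in FPKM for 7 of the 9 members, against 82.2% of all genes tested. The median absolute log2 fold change was 0.16 for the members and 0.30 for all genes, which were not matched to the members by level. No member was both called and at an absolute log2 fold change of 1 or more, which 6.52% of all genes were. At that share, finding none among 9 genes is not unusual.

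**Figure D1:**
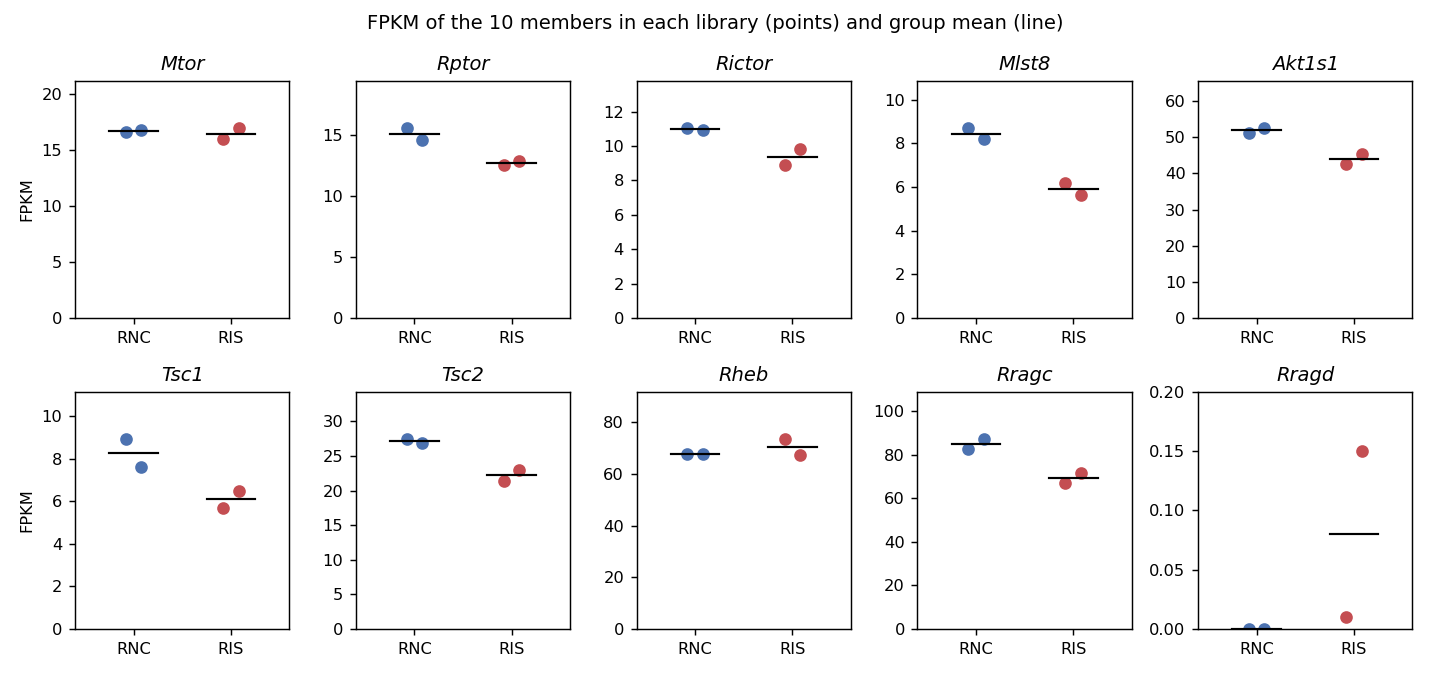
FPKM (vertical axis, from 0, with its own scale in each panel) of the 10 members in the 2 RNC and 2 RIS libraries. Each point is a library and each line a group mean; the groups are apart for Rptor, Rictor, Mlst8, Akt1s1, Tsc1, Tsc2, Rragc and the barely detected Rragd, and overlap for Mtor and Rheb.

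By level, the members spanned a wide range that the treatment left mostly in place. In the RNC libraries the order of mean FPKM was Rragc (85.1 ± 3.10, SD, n = 2), Rheb (67.6 ± 0.0849), Akt1s1 (51.9 ± 0.792), Tsc2 (27.2 ± 0.368), Mtor (16.7 ± 0.113), Rptor (15.1 ± 0.679), Rictor (10.975 ± 0.0636), Mlst8 (8.44 ± 0.339), Tsc1 (8.25 ± 0.940) and Rragd (0 in both). Of these neighbours only Mlst8 and Tsc1 overlapped. In the RIS libraries Rheb (70.3 ± 4.41, SD, n = 2) and Rragc (69.4 ± 3.01) overlapped at the top, and Tsc1 (6.08 ± 0.552) and Mlst8 (5.93 ± 0.389) overlapped at the lower end. The 5 genes from Akt1s1 to Rictor kept their order. The transcripts of Rragc, Rheb and Akt1s1 were thus several times more abundant per length than that of the kinase itself.

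Mtor, the kinase shared by both complexes (NCBI Gene 56717, chr4:148448582-148557685 of GRCm38.p6, plus strand), stood at 16.7 and 16.8 FPKM in the RNC libraries and at 16.03 and 16.96 FPKM in the RIS libraries. The RIS values lay on either side of the RNC values. Its log2 fold change, RIS over RNC, was 0.03 with a standard error of 0.0497, and its 95% interval ran from -0.08 to 0.14 (edgeR, adjusted p = 0.655). Its value was -0.067 with library size as the only scaling, -0.021 with limma on log2(FPKM + 1) and -0.16 with limma on log2(TPM + 1), scalings that moved the median of all genes to -0.093, -0.084 and -0.22, so Mtor lay above that median in each. Without RIS replicate 2 it was -0.023. With offsets for transcript length, described further on, Mtor was higher in RIS (0.16, adjusted p = 0.00549, edgeR).

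Rptor encodes Raptor, the subunit that defines mTORC1 (NCBI Gene 74370, chr11:119602905-119899591, plus strand). Its level was 15.6 and 14.6 FPKM in the RNC libraries and 12.5 and 12.9 FPKM in the RIS libraries. Both RIS libraries were below both RNC libraries, and Rptor fell by 10.4% (log2 fold change -0.16, standard error 0.0590, adjusted p = 0.0351, edgeR). The percent changes of the members are from edgeR after TMM scaling, not from the FPKM printed beside them. The TMM factors were 1.031 and 1.035 in RNC and 0.963 and 0.973 in RIS. This call was lost with DESeq2 (adjusted p = 0.113), with no filter on low values (adjusted p = 0.0795, edgeR), with length offsets (log2 fold change -0.05, adjusted p = 0.411, edgeR) and when RNC replicate 1, RNC replicate 2 or RIS replicate 1 was left out (adjusted p = 0.378, 0.0658 and 0.0788, edgeR). Without RIS replicate 2 the change was -0.18 on the log2 scale (adjusted p = 0.0185, edgeR). Its exons share 84 bases with the antisense gene Rptoros.

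Rictor, the subunit that defines mTORC2 (NCBI Gene 78757, chr15:6708349-6800401, plus strand), was measured at 11.02 and 10.93 FPKM in the RNC libraries and 8.89 and 9.82 FPKM in the RIS libraries. The groups did not overlap, but the log2 fold change of -0.14 (standard error 0.0575, 95% interval -0.27 to -0.01) missed the threshold after adjustment (adjusted p = 0.0519, edgeR). Without RIS replicate 2 it passed (-0.20, adjusted p = 0.00571, edgeR), whereas it did not without RIS replicate 1 (-0.078, adjusted p = 0.235, edgeR), RNC replicate 1 (adjusted p = 0.250, edgeR) or RNC replicate 2 (adjusted p = 0.215, edgeR). It also passed among genes with a mean of 5 FPKM or more (-0.16, adjusted p = 0.0179, edgeR) and after scalings that lower the median of all genes, such as limma on log2(TPM + 1) (-0.36, adjusted p = 0.00508). With length offsets its log2 fold change was 0.0046 (adjusted p = 0.938, edgeR). The ratio of Rptor to Rictor FPKM within a library was 1.41 and 1.34 in RNC and 1.41 and 1.32 in RIS.

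Mlst8, the small beta-propeller subunit present in both complexes (NCBI Gene 56716, chr17:24473550-24479114, minus strand), had the largest log2 fold change of the 9 tested members by the main test, but not without RIS replicate 2 (-0.34 against -0.44 for Tsc1) or without RNC replicate 2 (-0.458 against -0.459). It stood at 8.68 and 8.20 FPKM in the RNC libraries and at 6.20 and 5.65 FPKM in the RIS libraries, from 459 and 421 against 326 and 292 counts. Both RIS libraries were well below both controls, and Mlst8 fell by 25.03% (log2 fold change -0.42, standard error 0.0812, adjusted p = 0.000999, edgeR). The call held in each of the 17 alternatives run for it, with log2 fold changes between -0.61 and -0.34, and it was -0.34 without RIS replicate 2 (adjusted p = 0.00595, edgeR). Its exons share 997 bases with Bricd5 on the opposite strand, which had at most 1.04 counts in any library.

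Akt1s1 encodes PRAS40, an inhibitor of mTORC1 that Akt phosphorylates (NCBI Gene 67605, chr7:44849224-44855421, plus strand). It was at 51.3 and 52.4 FPKM in the RNC libraries and at 42.6 and 45.4 FPKM in the RIS libraries. The groups did not overlap, and Akt1s1 fell by 10.4% (log2 fold change -0.16, standard error 0.0630, adjusted p = 0.0457, edgeR). This call lay close to the threshold: it was lost with DESeq2 (adjusted p = 0.135), with no filter on low values (adjusted p = 0.0734, edgeR) and without RNC replicate 1, RNC replicate 2 or RIS replicate 1 (adjusted p = 0.122, 0.215 and 0.133, edgeR), and held with length offsets (-0.21, adjusted p = 0.0106, edgeR) and without RIS replicate 2 (-0.21, adjusted p = 0.00737, edgeR). Its exons share 89 bases with Tbc1d17 on the opposite strand, which was at 12.4 and 12.6 FPKM in RNC and 12.5 and 13.8 FPKM in RIS.

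Tsc1 and Tsc2, genes of the TSC complex that is the brake on Rheb, were both lower in RIS by the main test. Tsc1, which encodes the stabilising subunit hamartin (NCBI Gene 64930, chr2:28640993-28691172, plus strand), was at 8.91 and 7.58 FPKM in the RNC libraries and 5.69 and 6.47 FPKM in the RIS libraries. Its RNC libraries differed more from each other than those of any other member relative to their mean, but both stayed above both RIS libraries, and Tsc1 fell by 21.4% (log2 fold change -0.35, standard error 0.0889, adjusted p = 0.00539, edgeR). The call held in each of the 17 alternatives, with log2 fold changes from -0.54 to -0.22. With 1 library left out, the log2 fold change was -0.44 without RIS replicate 2 and -0.26 without RIS replicate 1. It was -0.23 without RNC replicate 1 and -0.459 without RNC replicate 2 (edgeR).

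Tsc2 encodes tuberin, the GTPase-activating subunit (NCBI Gene 22084, chr17:24595816-24632676, minus strand), and was at 27.4 and 26.9 FPKM in the RNC libraries and 21.4 and 23.0 FPKM in the RIS libraries. The groups were apart, and Tsc2 fell by 12.9% (log2 fold change -0.20, standard error 0.0501, adjusted p = 0.00484, edgeR; -0.25 without RIS replicate 2, adjusted p = 0.000742, edgeR). The call was lost with length offsets (-0.10, adjusted p = 0.0501, edgeR) and without RNC replicate 1 (-0.19, adjusted p = 0.0518, edgeR). Tsc2 shares 693 exonic bases with Pkd1 on the opposite strand, whose own level was 34.1 and 30.9 FPKM in RNC and 23.7 and 26.1 FPKM in RIS. Since the sources used here do not say whether strand was used in counting, reads from the shared bases cannot be assigned with certainty.

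Rheb, the GTPase that activates mTORC1 (NCBI Gene 19744, chr5:24802823-24842361, minus strand), was the only tested member called higher. Its FPKM was 67.5 and 67.6 in the RNC libraries and 73.4 and 67.2 in the RIS libraries. In FPKM the higher value came from RIS replicate 1 alone, and RIS replicate 2 lay just below the controls. With TMM scaling, Rheb stayed above 0 when RIS replicate 1 was left out (log2 fold change 0.085, edgeR). After TMM scaling its log2 fold change was 0.16 (standard error 0.0577, 95% interval 0.03 to 0.28, adjusted p = 0.0346, edgeR), but it was -0.087 with limma on log2(TPM + 1), 0.092 with length offsets (adjusted p = 0.128, edgeR) and 0.062 with library size as the only scaling (adjusted p = 0.353, edgeR). The call was also lost with DESeq2 (adjusted p = 0.104) and without RNC replicate 1, RNC replicate 2 or RIS replicate 1 (adjusted p = 0.188, 0.184 and 0.193, edgeR), and without RIS replicate 2 it was 0.22 (adjusted p = 0.00253, edgeR).

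Of the Rag GTPases, Rragc (RagC, NCBI Gene 54170, chr4:123917433-123936997, plus strand) was the most abundant member in the controls. It stood at 82.9 and 87.3 FPKM in the RNC libraries and at 67.3 and 71.5 FPKM in the RIS libraries. The groups did not overlap, and Rragc fell by 12.8% (log2 fold change -0.20, standard error 0.0496, adjusted p = 0.00480, edgeR). The call held in 16 of 17 alternatives, including without RIS replicate 2 (-0.24, adjusted p = 0.00128, edgeR), and was lost without RNC replicate 2 (-0.16, adjusted p = 0.0718, edgeR). Its exons share 264 bases with 4930535I16Rik on the opposite strand.

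Rragd (RagD, NCBI Gene 52187, chr4:32982998-33022180, plus strand), the partner that can take the place of RagC, was barely detected. It had 0 counts in both RNC libraries, 1 count in RIS replicate 1 and 12 counts in RIS replicate 2, or 0, 0, 0.01 and 0.15 FPKM. A single library, the one with the kidney transcripts, exceeded the limit of 3 counts that a count of 0 allows, and without it no library did. The part of those transcripts in the Rragd counts was not tested.

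The proximal promoters of the Rag and Rheb genes are shown because lysosomal and Rag genes are known targets of the MiT/TFE transcription factors (Tfeb, Tfe3 and Mitf), which bind E-box sequences with the core CACGTG and are themselves controlled by mTORC1. The lines below give the 250 bases before the transcription start of RefSeq for Rragc (chr4:123917183-123917432, plus strand), Rragd (chr4:32982748-32982997, plus strand) and Rheb (chr5:24842362-24842611, minus strand), in GRCm38.p6 and 5′ to 3′ on the gene's strand, with CACGTG in capitals.
Rragc: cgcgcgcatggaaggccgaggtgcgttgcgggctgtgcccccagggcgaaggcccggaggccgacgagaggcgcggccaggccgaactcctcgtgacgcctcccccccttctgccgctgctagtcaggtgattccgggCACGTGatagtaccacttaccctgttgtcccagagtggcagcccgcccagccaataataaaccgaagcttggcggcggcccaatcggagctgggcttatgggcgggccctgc
Rragd: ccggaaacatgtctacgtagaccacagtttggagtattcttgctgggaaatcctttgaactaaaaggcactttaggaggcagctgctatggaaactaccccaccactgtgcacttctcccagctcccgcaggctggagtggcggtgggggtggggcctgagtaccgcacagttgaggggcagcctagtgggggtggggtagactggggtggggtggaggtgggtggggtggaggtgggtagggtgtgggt
Rheb: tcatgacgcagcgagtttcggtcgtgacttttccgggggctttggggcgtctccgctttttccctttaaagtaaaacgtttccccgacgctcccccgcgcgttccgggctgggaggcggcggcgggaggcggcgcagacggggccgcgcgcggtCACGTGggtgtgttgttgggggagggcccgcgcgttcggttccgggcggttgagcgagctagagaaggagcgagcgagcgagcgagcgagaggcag
The motif, which reads the same on both strands, was found once for Rragc, at position -112 from the start, once for Rheb, at position -96, and not in the window of Rragd or of the other 7 members. Not all of those windows end at the gene start given above. That of Akt1s1 (chr7:44850122-44850371) lay inside the gene, and those of Rictor, Mlst8, Tsc1 and Tsc2 ran past the start. Absence of the motif thus holds for the windows only. It was in 6.02% of the 32851 windows of the same length in the table and in 10.2% of those of 8329 tested genes. The 2 members with the motif moved in opposite directions by the main test, Rragc lower and Rheb higher, although the value of Rheb was below 0 with TPM. Of the factors, Tfe3 was at 51.4 and 53.3 FPKM in RNC and 44.7 and 39.2 FPKM in RIS (log2 fold change -0.21, adjusted p = 0.0110, edgeR), and Mitf was also lower (-0.19, adjusted p = 0.0190, edgeR). Both calls were lost without RIS replicate 2 (Tfe3 -0.12, adjusted p = 0.0638, and Mitf -0.14, adjusted p = 0.127, edgeR), without RNC replicate 2 (adjusted p = 0.0746 and 0.0871, edgeR) and with no filter on low values (adjusted p = 0.0727 and 0.0520, edgeR). That of Mitf was also lost without RNC replicate 1 (adjusted p = 0.0770, edgeR), with DESeq2 (adjusted p = 0.193) and with length offsets (adjusted p = 0.163, edgeR). Tfeb, added here after its values were seen, had a log2 fold change of 0.0027 (95% interval -0.33 to 0.33, adjusted p = 0.988, edgeR).

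**Figure D2:**
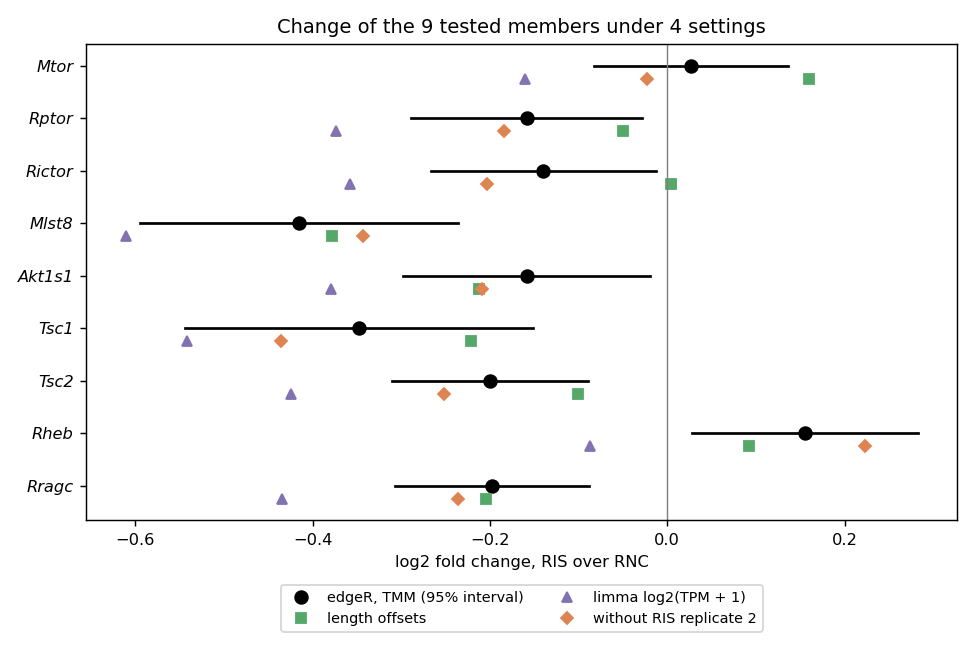
Log2 fold change of RIS over RNC (horizontal axis) of the 9 tested members. Black points with bars are the edgeR values with 95% intervals and the coloured marks are values with length offsets, with limma on log2(TPM + 1) and without RIS replicate 2; Mlst8, Tsc1, Tsc2, Rptor, Akt1s1 and Rragc stay below 0 in all 4 settings, whereas Mtor, Rictor and Rheb cross 0 in at least 1.

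The scaling and the length of transcripts bear on changes of this size. Rescaling to TPM moved the median of all genes downward, to -0.22 on the log2 scale. Relative to that median the values of Mtor and Rheb were above and those of Rptor, Rictor, Mlst8, Akt1s1, Tsc1, Tsc2 and Rragc below. Over all genes tested, the log2 fold change varied with transcript length, from a median of 0.16 in the shortest of 10 equal groups by length to -0.13 in the longest. Mtor, Rptor, Rictor and Tsc1 belong to the longest group. Relative to the median of genes of their own length, Rptor (-0.032) and Rictor (-0.013) lay close to it, Mtor lay above it (0.15), and Tsc1 (-0.22) and Tsc2 (-0.11) lay below it. Akt1s1 (-0.20), Rragc (-0.24) and Mlst8 (-0.38), whose transcripts are shorter, lay below it too, and Rheb lay 0.069 above. With length offsets 4 members were called lower (Mlst8, Tsc1, Rragc and Akt1s1) and 1 higher (Mtor).

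**Figure D3:**
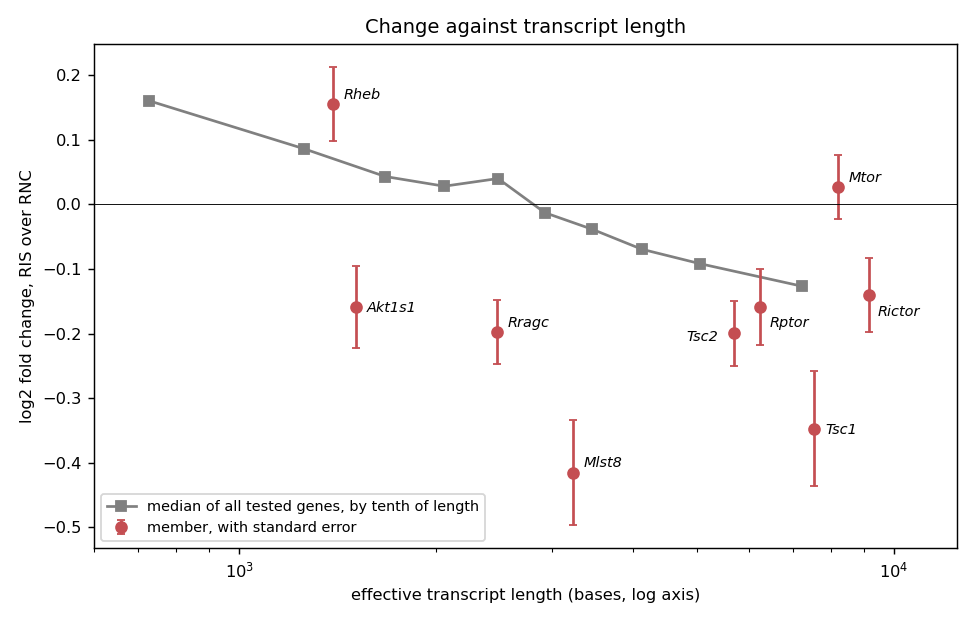
Log2 fold change (vertical axis) against effective transcript length in bases (horizontal axis, log scale) for the 9 tested members, in red with standard errors. The grey squares are medians of all tested genes in 10 groups by length and run from 0.16 to -0.13; Rptor and Rictor lie close to the grey line, Mtor and Rheb above it, and Mlst8, Tsc1, Tsc2, Akt1s1 and Rragc below it.

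The balance of subunits was compared as ratios of FPKM within a library, which no scaling between libraries can change. The ratio of Mlst8 to Mtor was 0.521 and 0.488 in the RNC libraries and 0.387 and 0.333 in the RIS libraries, a log2 difference of -0.49. The ratio of Akt1s1 to Mtor was 3.08 and 3.12 in RNC and 2.65 and 2.67 in RIS, a log2 difference of -0.22. Both ratios were lower in each RIS library than in each control, so mLST8 and PRAS40 transcripts were fewer per Mtor transcript. For Tsc1 to Tsc2 the values were 0.325 and 0.282 in RNC and 0.265 and 0.281 in RIS, groups that were apart only by the third digit, and for Rptor to Rictor the groups overlapped. With 2 libraries against 2 the exact permutation test over 6 splits allows no p below 0.333, two-sided. The exact permutation p was 0.333 for Mlst8 to Mtor, Akt1s1 to Mtor and Tsc1 to Tsc2 (0.444 adjusted over the 4 ratios) and 0.667 for Rptor to Rictor, so no ratio could pass. No ratio of Rragd to Rragc was formed, since Rragd had 0 counts in both controls.

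**Figure D4:**
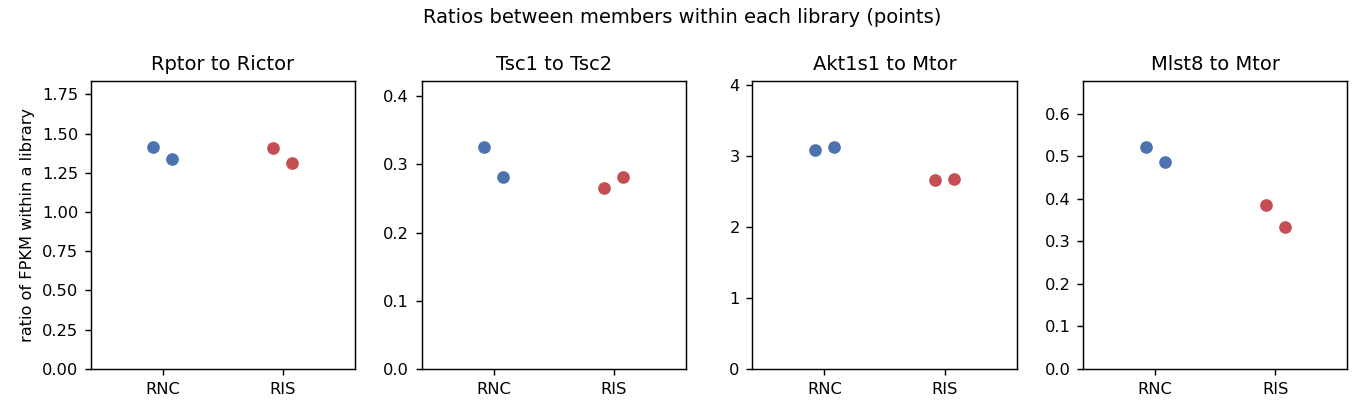
Ratio of FPKM between members within the same library (vertical axis, from 0), with 1 point for each of the 2 RNC and 2 RIS libraries. Akt1s1 to Mtor and Mlst8 to Mtor are lower in both RIS libraries than in both RNC libraries, and Rptor to Rictor overlaps.

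The other genes of the pathway were followed in 7 lists of 66 genes, of which 65 were listed in the table and 60 were tested. Of these, 17 were higher and 22 lower in RIS and 21 did not pass, so 65.0% were called against 64.3% of all genes. By list the share called ran from 54.5% (GATOR and KICSTOR) to 78.6% (downstream effectors). The split was 13 higher and 28 lower with library size as the only scaling and 10 and 36 with limma on log2(TPM + 1). Their median absolute log2 fold change was 0.26, against 0.16 for the members and 0.30 for all genes tested. Without RIS replicate 2, 16 were higher and 20 lower. In that setting the log2 fold change was 1.95 for Prr5, 1.09 for Prr5l and 1.04 for Lpin1, and -2.01 for Ddit4, -1.55 for Sesn2, -1.30 for Sesn3, -0.99 for Tbc1d7, -1.08 for Pdcd4 and -0.79 for Rps6kb1. Lamtor1, Lamtor2, Wdr24, Nprl2, Itfg2, Castor2 and Pik3ca also kept their calls in it. Several single genes around the complexes changed far more than the complexes' core.

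Among 9 other complex subunits and assembly factors, 3 were higher, 3 lower and 3 not called. Prr5, an mTORC2 subunit also called Protor-1, was at 1.88 and 2.53 FPKM in RNC and 8.33 and 7.83 FPKM in RIS (log2 fold change 1.90, standard error 0.166, edgeR). Its relative Prr5l rose by 1.14 on the log2 scale from a low level (1.06 to 2.19 mean FPKM). Tbc1d7, the third subunit of the TSC complex, was at 13.5 and 14.8 FPKM in RNC and 6.72 and 5.99 FPKM in RIS (-1.09, standard error 0.135, edgeR). All 3 genes of that complex were thus called lower by the main test, as were 32.2% of all genes tested. The call of Tsc2 was lost with length offsets. Deptor, a subunit that inhibits both complexes and was added here after its values were seen, was at a mean of 1.995 against 3.09 FPKM (0.73, standard error 0.0918, edgeR). Rhebl1, the paralog of Rheb, was at 1.81 and 1.95 against 1.02 and 1.41 FPKM and did not pass (-0.53, adjusted p = 0.134, edgeR).

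Among 7 tested Rag partners and Ragulator genes, which anchor the Rag GTPases at the lysosome, 2 were higher, 2 lower and 3 not called by the main test, with 2 higher and 4 lower with library size as the only scaling and 0 higher and 4 lower with limma on log2(TPM + 1). Rraga, the partner of RagC, was at 71.95 and 73.98 FPKM in RNC and 89.9 and 83.2 FPKM in RIS (log2 fold change 0.34, standard error 0.0534, edgeR), opposite in sign to Rragc. Without RIS replicate 2 the calls of Rraga and Rragc held. Lamtor1, the Ragulator scaffold, was lower (-0.27, standard error 0.0544, edgeR). Lamtor2 was higher by the main test (0.26, standard error 0.0606, edgeR), but its log2 fold change was 0.00056 with length offsets and -0.035 with length and GC offsets. Rragb was not analysed here.

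The GATOR and KICSTOR genes relay amino acid levels to the Rags, and of 11 tested 4 were higher, 2 lower and 5 not called by the main test, with 4 higher and 4 lower with library size as the only scaling and 4 and 6 with limma on log2(TPM + 1). Wdr24 of the activating GATOR2 complex rose by 0.61 and Nprl2 of the inhibitory GATOR1 complex by 0.51 on the log2 scale, and Itfg2 of KICSTOR was lower (-0.72). Among 8 tested nutrient sensors and folliculin genes, 1 was higher, 4 lower and 3 not called by the main test. With length offsets 3 were higher and 4 lower, and with limma on log2(TPM + 1) 0 were higher and 6 lower. Sesn2, a leucine sensor that restrains mTORC1, was at 21.2 and 22.0 FPKM in RNC and 6.84 and 7.32 FPKM in RIS (-1.51, standard error 0.0634, edgeR). Its relative Sesn3 was lower as well (-1.27), as was Castor2, which belongs to the family of the arginine sensor (-0.47).

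Of 8 tested upstream inputs 5 were lower, 3 not called and none higher by the main test, so 62.5% were called against 64.3% of all genes. With library size as the only scaling 6 were lower, and with limma on log2(TPM + 1) 7 were lower. Ddit4 (REDD1), a stress-induced inhibitor that acts through the TSC complex, was at 97.9 and 95.8 FPKM in RNC and 22.5 and 25.1 FPKM in RIS (log2 fold change -1.93, standard error 0.0626, edgeR). Pik3ca, a catalytic subunit of PI3-kinase, was also lower (-0.40, standard error 0.0455, edgeR).

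Of 14 tested downstream effectors 7 were higher, 4 lower and 3 not called by the main test, a balance that turned to 3 higher and 5 lower with library size as the only scaling, 4 and 6 with limma on log2(FPKM + 1) and 3 and 6 with limma on log2(TPM + 1). Lpin1, a phosphatidate phosphatase that mTORC1 controls, was at 14.5 and 15.9 FPKM in RNC and 29.3 and 28.4 FPKM in RIS (log2 fold change 1.01, standard error 0.0507, edgeR). Pdcd4, a translation inhibitor, was lower (-1.003), and so was Rps6kb1, which encodes a main substrate kinase of mTORC1 (-0.77). These are transcript levels, and no phosphorylation or complex assembly was measured in these libraries.

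**Figure D5:**
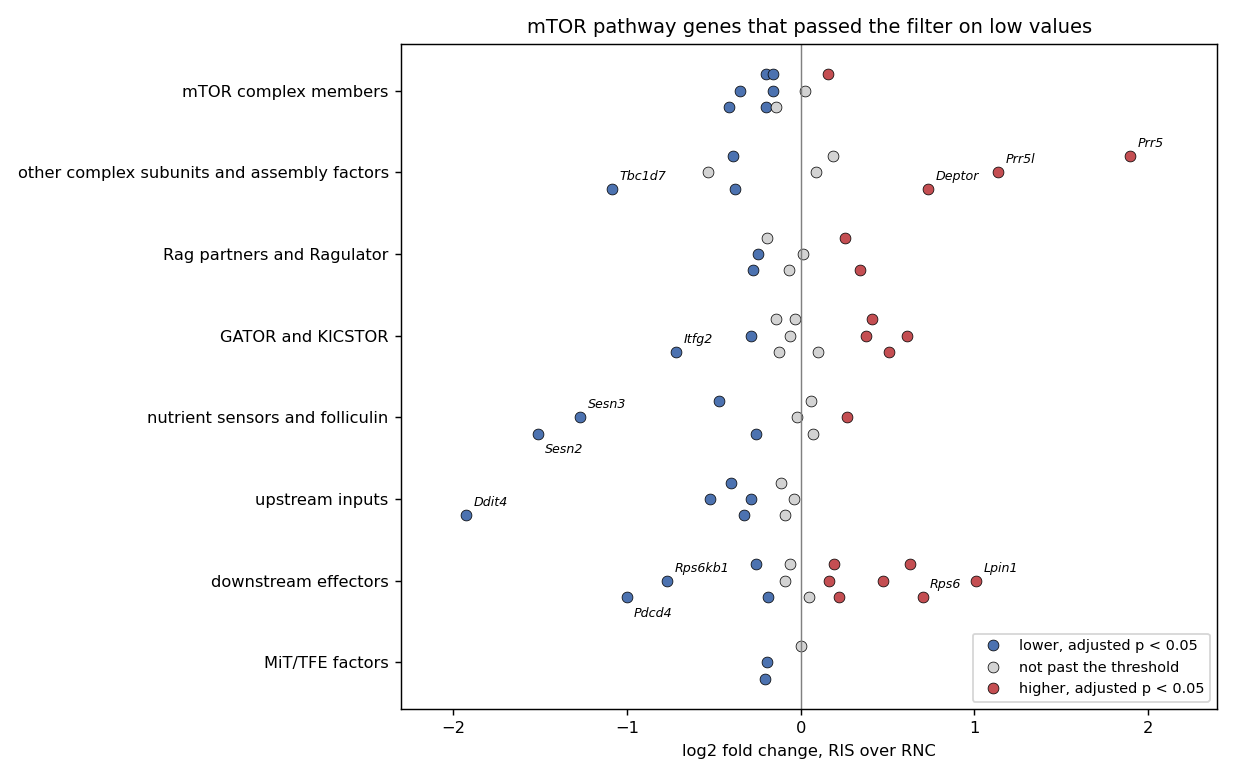
Log2 fold change of RIS over RNC (horizontal axis) of the tested members and of 60 other pathway genes, 1 point a gene, in rows by list; red is higher, blue lower and grey not past the threshold by edgeR. The 9 members lie between -0.42 and 0.16, while genes such as Ddit4, Sesn2 and Tbc1d7 lie below -1 and Prr5, Prr5l and Lpin1 above 1.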

How the data were processed

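mRNA of 4 libraries (2 RNC, 2 RIS) was sequenced by the authors. The deposited table holds estimated counts (expected counts, unnormalised), FPKM and TPM, each computed by the authors from mapped reads. The submitters' processing notes name Bowtie2, RSEM, DESeq2 and GRCm38.p6, with no versions. Strandedness is not given in the sources used here. After rounding of the counts, genes averaging 1 FPKM or more were tested for RIS against RNC with edgeR 4.0.16 in R 4.3.3 (TMM, quasi-likelihood F-test, two-sided, Benjamini-Hochberg adjustment over 10243 genes, threshold 0.05), after a test on simulated data. Length offsets removed a loess trend (span 0.5) of log ratios with effective length. Alternatives were DESeq2 1.42.0, limma 3.58.1 on log2 FPKM or TPM, RLE or library size scaling, other filters on low values, a replicate block, length and GC offsets, and each library left out.

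Named genes were the 10 members, up to 3 called genes without overlap between groups from each pathway list, by absolute log2 fold change, and the paralogs of members; others are said to be added after their values were seen. A gene that this rule names is not reported here. The members and lists were chosen with earlier results of these data known. Same-numbered libraries deviated from their group means with a correlation of -0.105 over 10243 genes, so replicate numbers were not taken to pair the libraries. Positions and promoter windows are those of RefSeq and shared exonic bases those of GENCODE, both on GRCm38.p6. Promoter windows were available for all 10 members. Other steps used Python 3.11.15 with pandas 2.3.3, scipy 1.17.1 and matplotlib 3.10.9.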

Additional observations from a re-analysis of the deposited data

How the results depend on the processing

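Of the 9 tested members, Mlst8 and Tsc1 kept their call in all 17 alternatives and Rragc in 16. When the absolute log2 fold change also had to reach 1, 0 members were higher and 0 lower, 3 and 5 other pathway genes, and 267 and 401 of all genes. With limma on log2(TPM + 1), 1536 genes were higher and 5292 lower (3287 and 3303 by edgeR), 10 and 36 of them other pathway genes (17 and 22 by edgeR). The call of Rheb was the sole one upward, and 0 members were higher with no filter, library size only, DESeq2, limma on log2(FPKM + 1), on log2(FPKM + 0.1) and on log2(TPM + 1). Leaving out each library in turn gave 0 to 1 members higher and 3 to 7 lower. The lowest counts, 3, came without RNC replicate 1 (Mlst8, Tsc1, Rragc) and without RNC replicate 2 (Mlst8, Tsc1, Tsc2). Mtor was below 0 with library size only (-0.067), limma on log2(FPKM + 1) (-0.021), log2(FPKM + 0.1) (-0.022) and log2(TPM + 1) (-0.16), but above the median of all genes in each (-0.093, -0.084, -0.092 and -0.22), and it ranged from -0.023 to 0.076 with each library left out. Rictor turned with length offsets (0.0046), with these and a replicate block (0.0041) and with length and GC offsets (0.025), Rheb was below 0 but above that median with TPM (-0.087), and Lamtor2 turned with length and GC offsets (-0.035). The log2 difference of the Rptor to Rictor ratio ranged from -0.062 to 0.037 with each library left out. The causes of the other turns were not tested. Leaving out a library leaves 1 in its group, which is then assumed to vary like the other group.

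With a replicate block, 3292 genes were higher and 3321 lower, and Rictor passed the threshold (adjusted p = 0.0492, edgeR). The block changed no other call of a member. Since the libraries share only a number, this is no sign of a stronger effect. With the crossed pairing, chosen after seeing the data like the length and GC offsets, 3474 genes were higher and 3519 lower.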

Other observations

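The effective transcript length implied by count and FPKM was 8384 and 8313 bases for Mtor in the RNC libraries and 7995 and 8181 bases in the RIS libraries, a difference of -3.12%, which 11.3% of the genes tested reached or exceeded in size. For the other tested members it was under 1%. This length is an average over the transcripts to which the counting tool assigned reads, so FPKM and count give slightly different changes for Mtor. Its estimated counts were 2287 and 2221 in RNC and 2085 and 2217 in RIS.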
